A study of Mus musculus with 15 samples.

Results

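Ventricles in which CELF2 had been induced for 72 h were compared with control ventricles given doxycycline for the same 72 h. Of the 15 hearts of the CELF2 time course, 6 entered this comparison, 3 at 72 h and 3 controls, each from a separate FVB mouse aged 14 to 16 weeks. Induced mice were MHCrtTA/TRECUGBP2, in which the cardiomyocyte promoter of the alpha myosin heavy chain drives the reverse tetracycline transactivator and this in turn switches on a transgene for human CELF2. The controls had MHCrtTA without the transgene, and both groups ate food with 2 g/kg doxycycline, so that the transactivator and the antibiotic were shared. The labels of the induced hearts also name a Celf1 cassette, which goes against the genotype beside it and against the Celf1 values given below. The other 9 hearts had CELF2 induced for 12 h, 24 h or 7 d (3 each) and were used for the spread between animals and for the comparison of 72 h with other times. Of 16199 genes in the table, 10539 averaged 1 RPKM or more in the 6 hearts and were tested. The last genes kept were Fbxl7, Asns and Tbc1d8b (mean 1.0 RPKM each), and the first left out were Opn3 (0.998 RPKM), Pcdhb20 and Sfrp2 (0.997 RPKM each).

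CELF2 belongs to a family of RNA-binding proteins that recognise GU-rich sequence. In the nucleus these proteins regulate alternative splicing, and in the cytoplasm they bind 3′ UTRs and promote deadenylation and decay of the bound mRNA. CELF proteins are abundant in the fetal heart and fall after birth, while muscleblind proteins rise, and in myotonic dystrophy CELF1 is raised again in adult muscle and heart.

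RPKM (reads per kilobase of coding sequence, scaled to the mapped reads of a library) gives a level per length of gene, and the depth of each library is unknown. Genes listed at 0 numbered 1463 to 1977 in the hearts at 72 h and 1707 to 1731 in control hearts, and the lowest number belonged to 72 h heart 3. Sample titles carry a code that the labels do not explain, and it takes 3 values, named A, B and C. The 72 h hearts 1 and 2 and control heart 1 have code A, control hearts 2 and 3 code B, and 72 h heart 3 code C. The Y-linked genes Kdm5d, Uty, Ddx3y and Eif2s3y together gave 70.3, 69.5 and 53.6 RPKM of mRNA in the hearts at 72 h, against 0.06, 0.04 and 53.4 RPKM in control hearts 1, 2 and 3. Sex is not given in the labels, and it cannot be fully told apart from CELF2 here, since 2 of 3 controls lacked Y-linked mRNA and 0 of 3 hearts at 72 h did. Values within code A (2 hearts against 1) and within the hearts with Y-linked mRNA (3 against control heart 3) are therefore given beside the main results.

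Celf2 mRNA (Entrez 14007, listed in the table under an older symbol) was the most changed gene that passed the test. It reached 261, 217 and 213 RPKM in the hearts at 72 h, against 8.54, 11.3 and 9.64 RPKM in control hearts. The lowest heart at 72 h lay 18.9-fold above the highest control heart, and the ratio of the means was 23.5. The log2 change from limma, fitted to log2(RPKM + 0.5), was 4.49 with a standard error of 0.26 (adjusted p = 6.29e-07), and an exact two-sided permutation test of the 6 hearts gave p = 0.1, the smallest p that 3 against 3 allow. Within code A the ratio was 28.0. Reads were assigned to the mouse gene on chromosome 2 of mm9 (6460751 to 7002348, minus strand), and transcripts of the human transgene and of mouse Celf2 cannot be told apart in these values.

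Of the other family members found in the table, only Celf1 was expressed highly enough to be tested, and it moved the opposite way. Celf1 had 10.48, 10.01 and 6.27 RPKM at 72 h, against 22.6, 24.4 and 24.5 RPKM in control hearts. All 3 hearts at 72 h lay below every control heart, and the mean was 0.374 times that of control hearts (log2 change -1.40, standard error 0.21, adjusted p = 0.0114). The log2 change was -1.11 within code A and -1.44 in the hearts with Y-linked mRNA. The call was kept in 4 of the 6 fits that left out a single heart, and the adjusted p was 0.161 after adjustment for Y-linked mRNA. The mean at 72 h was also the lowest of the time course, where Celf1 averaged 23.8 RPKM in control hearts, 17.1 RPKM at 12 h, 12.4 RPKM at 24 h, 8.92 RPKM at 72 h and 11.1 RPKM at 7 d.

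Celf3, Celf4 and Celf6 were at or below 0.17 RPKM in every one of the 6 hearts, and Celf6 was listed at 0 throughout. Celf5 was not found among the genes in the table, so its level is unknown here. Mbnl1, the muscleblind splicing factor most often set against CELF proteins, had 27.12, 24.48 and 18.67 RPKM at 72 h, against 25.01, 23.35 and 19.51 RPKM in control hearts. Its paralog Mbnl2 had 38.9, 38.8 and 39.9 RPKM at 72 h, against 33.2, 42.6 and 42.3 RPKM in control hearts. The groups overlapped for both genes, with log2 changes of 0.04 (standard error 0.28) for Mbnl1 and 0.00 (standard error 0.13) for Mbnl2, and both signs turn under some alternatives. Mbnl3 was at or below 0.14 RPKM in every heart.

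A total of 65 genes (0.617% of those tested) passed an adjusted p of 0.05. Of these, 25 (0.237%) were higher at 72 h and 40 (0.38%) were lower. In all 65 the 3 hearts at 72 h did not overlap the 3 control hearts, which was the case for 18.2% of all tested genes. The median log2 change was 0.64 over the genes called higher and -0.77 over those called lower, beside -0.08 over all tested genes. On the log2(RPKM + 0.5) scale, which damps changes of low genes, 2 of the genes called higher (Celf2 and Nppb) and 9 of those called lower changed by at least 2-fold. By the ratio of the group means, 5 of those called higher and 17 of those called lower did. The sign was the same for 65 of 65 genes within code A and in the hearts with Y-linked mRNA. Without overlap between the groups this outcome was fixed in advance, as it was in the fits that left out a heart. These counts are therefore no check on the title code or sex. Over all the alternatives tried, the sign changed in 0 of 1212 values of these genes. At an unadjusted p of 0.05, 488 genes were higher (4.63%) and 960 lower (9.11%).

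**Figure D1:**
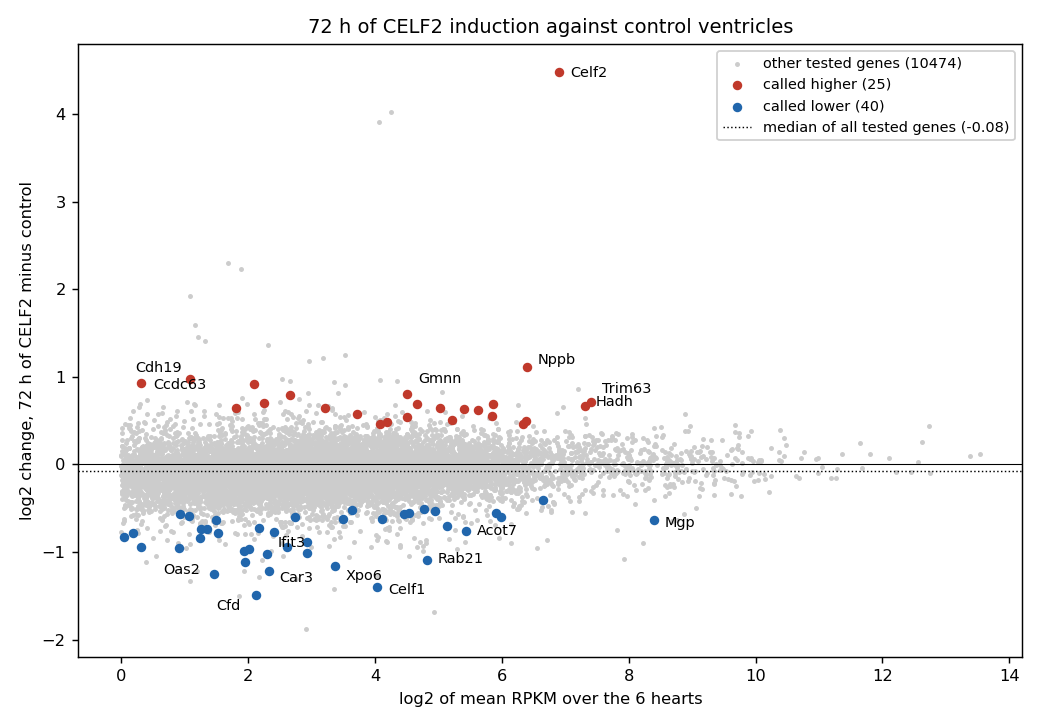
Log2 change (72 h of CELF2 minus control) of each tested gene on the vertical axis against the log2 of its mean RPKM over the 6 hearts on the horizontal axis, with 25 genes called higher in red and 40 called lower in blue. Celf2 stands apart at 4.49, and the dotted line marks the median of all tested genes at -0.08.

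Without 72 h heart 1, 2 or 3 the number of calls was 6, 14 and 269, and without control heart 1, 2 or 3 it was 7, 4 and 22. Celf2, Xpo6, Rab21 and Ctnnal1 were called in all 6 of these fits, and Yipf7 and Mrpl9 in 0. Many genes described below were called in only 1 of the 6. Among them were Trim63, Asb14, Ctsl, Eif3m, Rtcb, Mipep, Oas2, Oasl2, Rtp4, Trim25 and Cdh19. With the title code as a covariate 514 genes were called, the 65 among them, and with Y-linked mRNA as the covariate 6 were called (Celf2, Xpo6, Rab21, Acot7, Pls3 and Ccdc63). Scaling the hearts by the median ratio gave 87 calls, of which 58.6% were higher, in place of 38.5% in the values as deposited. The fit of the 6 hearts alone called Celf2 and 0 other genes, with 1415 genes at an unadjusted p under 0.05.

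Xpo6, Rab21 and Ctnnal1 were the lower genes least dependent on any single heart. Xpo6 encodes exportin 6, the carrier that exports actin from the nucleus. It had 6.47, 6.02 and 5.99 RPKM at 72 h, against 15.0, 16.3 and 12.0 RPKM in control hearts. The highest heart at 72 h thus lay well below the lowest control, and the log2 change was -1.16 (standard error 0.12, adjusted p = 0.000529). It was -1.20 within code A and -0.91 in the hearts with Y-linked mRNA. Among the 23 tested importins and exportins, the carriers of nuclear transport, 1 was called lower and 0 higher (0.38% and 0.237% of all genes). The median log2 change of these carriers was 0.02. Tnpo1, transportin 1, averaged 3.76 ± 1.77 RPKM at 72 h and 7.91 ± 2.13 RPKM in control hearts (SD, n = 3 each) and was not called (adjusted p = 0.329).

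Rab21 encodes a small GTPase of early endosomes that directs integrin trafficking. It had 15.55, 17.99 and 19.95 RPKM at 72 h, against 33.39, 40.09 and 41.99 RPKM in control hearts (log2 change -1.09, standard error 0.12, adjusted p = 0.00127). The mean at 72 h was 0.463 times that of control hearts, and this was close to the mean at 7 d (17.3 RPKM) and below those at 12 h and 24 h (35.5 and 30.9 RPKM). Ctnnal1 encodes alpha-catulin, a relative of alpha-catenin. It had 3.97, 4.21 and 3.91 RPKM at 72 h, against 8.65, 8.38 and 7.56 RPKM in control hearts (log2 change -0.94, standard error 0.12, adjusted p = 0.0032). After adjustment for Y-linked mRNA the adjusted p of Ctnnal1 was 0.0753, while those of Xpo6 and Rab21 were 0.00893 and 0.00308.

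Among the genes called lower were several of metabolism. Acot7 encodes an acyl-CoA thioesterase, which frees fatty acids from coenzyme A. Its level was 28.5, 33.5 and 34.3 RPKM at 72 h, against 54.9, 50.6 and 58.6 RPKM in control hearts (log2 change -0.76, adjusted p = 0.0131). Cdo1, cysteine dioxygenase, averaged 2.00 ± 0.396 RPKM at 72 h and 3.76 ± 0.165 RPKM in control hearts (SD, n = 3 each). As3mt, the methyltransferase of arsenic, averaged 17.6 ± 1.83 RPKM at 72 h and 26.3 ± 1.43 RPKM in control hearts (SD, n = 3 each). Slc7a5, a subunit of the large neutral amino acid transporter, was near the lower limit of the test at 0.703 ± 0.285 RPKM at 72 h and 1.79 ± 0.330 RPKM in control hearts (SD, n = 3 each). Mipep, the peptidase that trims proteins imported into mitochondria, averaged 22.7 ± 2.60 RPKM at 72 h and 32.3 ± 1.74 RPKM in control hearts (SD, n = 3 each).

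Rtcb, also called lower, encodes the ligase that joins tRNA exons and the Xbp1 mRNA, and it averaged 25.1 ± 1.13 RPKM at 72 h and 36.6 ± 2.04 RPKM in control hearts (SD, n = 3 each). Eif3m, a subunit of translation initiation factor eIF3, averaged 48.9 ± 1.53 RPKM at 72 h and 71.9 ± 2.28 RPKM in control hearts (SD, n = 3 each). Trnau1ap, a protein bound to the selenocysteine tRNA, had 14.0, 13.1 and 13.2 RPKM at 72 h, against 22.4, 20.2 and 20.2 RPKM in control hearts (log2 change -0.62, adjusted p = 0.0114). Its values were tight within each group. Exons of Eif3m, Rtcb, Mipep, Pigk, Cep112, Pkd2l2 and Itpr3 overlap those of a gene on the other strand in the mm9 annotation. The libraries were strand-specific, and the sources used here do not say whether the counting used strand, so the values of these 7 genes are uncertain to that extent. Celf2 has such a neighbour too (Gm17437).

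The remaining genes called lower had other roles. Pigk is the catalytic subunit that attaches GPI anchors (log2 change -0.88), and Ift140 (-0.84) is a subunit of the transport particle of cilia. Mgp, matrix Gla protein, an inhibitor of calcification, was the most abundant of the genes called lower, with 277, 227 and 291 RPKM at 72 h, against 423, 456 and 352 RPKM in control hearts. Appl2, an endosomal adaptor, averaged 18.7 ± 1.65 RPKM at 72 h and 27.8 ± 2.51 RPKM in control hearts (SD, n = 3 each). Ccne1, cyclin E1, Itpr3, an inositol trisphosphate receptor, Pth1r, the receptor of parathyroid hormone, and Tdp1, a DNA repair phosphodiesterase, each had mean levels below 5 RPKM in both groups, where the pseudocount of 0.5 understates the change. In all, 18 of the 40 genes called lower and 5 of the 25 called higher had a mean under 5 RPKM over the 6 hearts.

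Nppb had the largest log2 change after Celf2 among the genes called higher, although the ratio of the means was larger for the low genes Ccdc63 (2.53) and Cdh19 (2.38) than for Nppb (2.20). It encodes brain natriuretic peptide, a hormone that cardiomyocytes release under load. Its level was 103, 149 and 93.7 RPKM at 72 h, against 61.1, 49.8 and 46.5 RPKM in control hearts. All 3 hearts at 72 h exceeded every control heart, and heart 2 was the highest (log2 change 1.11, standard error 0.20, adjusted p = 0.0269). The call was kept in 1 of the 6 fits that left out a heart. In the time course the mean at 72 h (115 RPKM) lay far below that at 7 d (530.3 RPKM).

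The other genes of heart stress did not form a group with Nppb. Of 19 tested members 1 was called higher and 0 lower (0.237% and 0.38% of all genes), with a median log2 change of -0.01. Nppa, atrial natriuretic peptide, had 33.8, 28.2 and 53.6 RPKM at 72 h, against 22.5, 27.9 and 64.1 RPKM in control hearts, and the groups overlapped. Ankrd1, a stretch-responsive protein of the sarcomere, had 519, 790.4 and 474 RPKM at 72 h, against 512, 499 and 558 RPKM in control hearts, and also overlapped. Rcan1, a calcineurin inhibitor that is itself induced by calcineurin, had 34.0, 44.0 and 36.5 RPKM at 72 h, against 24.0, 25.7 and 31.9 RPKM in control hearts, without overlap and without passing the test (adjusted p = 0.208). Ccn2, connective tissue growth factor, had 16.3, 10.7 and 29.8 RPKM at 72 h, against 26.3, 29.8 and 43.3 RPKM in control hearts (adjusted p = 0.249).

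**Figure D2:**
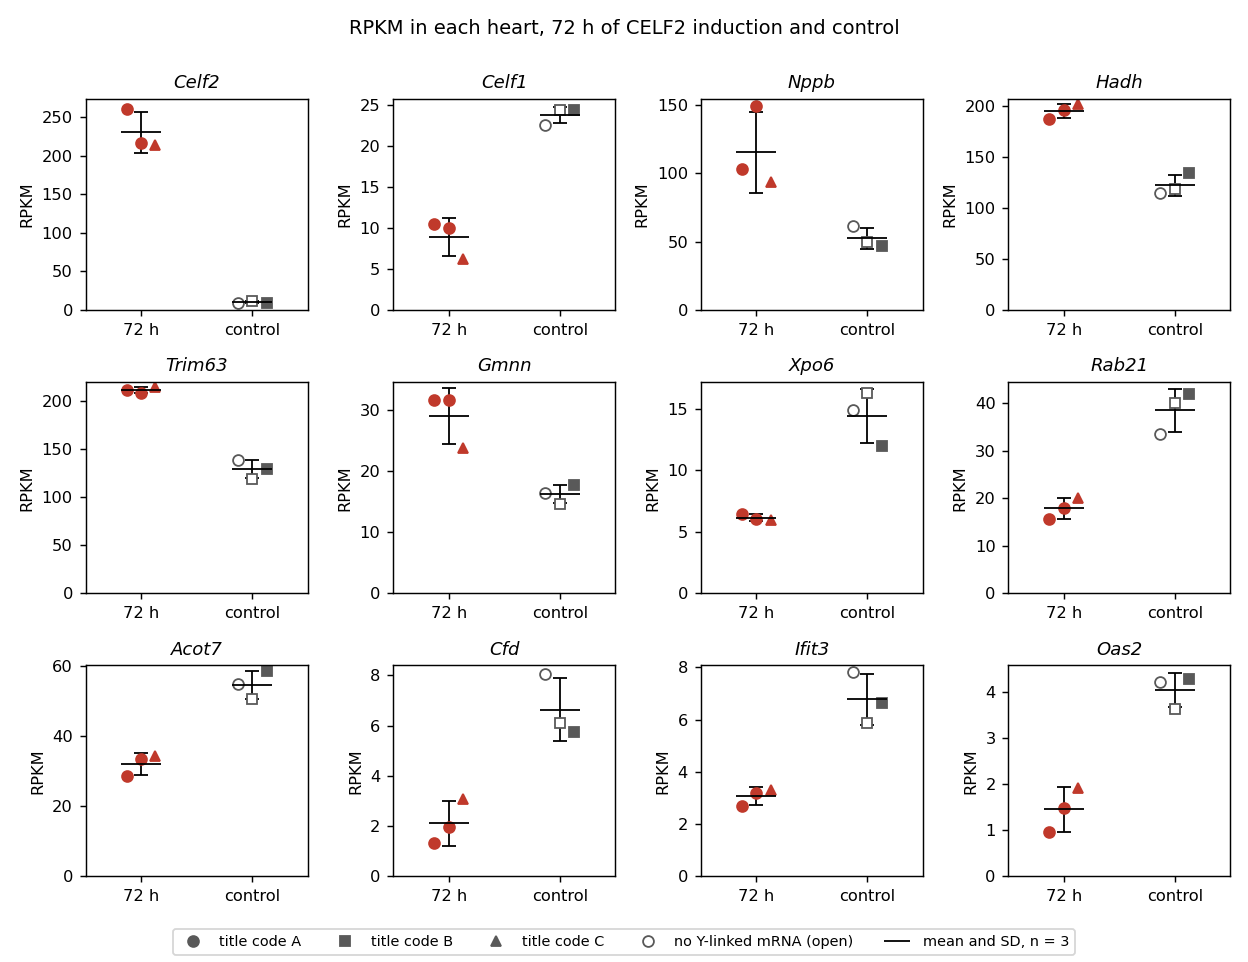
RPKM of 12 genes in each of the 3 hearts at 72 h (red) and the 3 control hearts (grey), with bars for mean and SD, marker shapes for the title code and open markers for hearts without Y-linked mRNA. In each panel the groups do not overlap: Celf2, Nppb, Hadh, Trim63 and Gmnn are higher at 72 h and the other 7 genes lower.

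Contractile genes showed little movement. Of 27 tested sarcomere genes 0 were called in either direction, with a median log2 change of 0.00, and 1 was higher and 1 lower at an unadjusted p of 0.05 (4.63% and 9.11% of all genes). Myh6, the alpha myosin heavy chain whose promoter drives the transactivator, had 6525, 6178 and 7409 RPKM at 72 h, against 7243, 7330 and 6890 RPKM in control hearts. Actc1, cardiac alpha actin, had 6816, 6970 and 6945 RPKM at 72 h, against 5370, 6158 and 5809 RPKM in control hearts, without overlap and with an adjusted p of 0.186. Acta1, the skeletal isoform that is expressed in the fetal heart, had 403, 345 and 482 RPKM at 72 h, against 191, 393 and 362 RPKM in control hearts, with overlap.

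In the list of ubiquitin ligases and autophagy genes of muscle atrophy, 1 of 22 tested members was called higher and 2 lower. Over all genes these shares were 0.237% and 0.38%. The log2 change was above 0 for 6 members and below 0 for 16, with a median of -0.06. Trim63 encodes MuRF1, the ligase that marks sarcomere proteins for degradation. It had 212, 208 and 215 RPKM at 72 h, against 139, 119 and 129.9 RPKM in control hearts (log2 change 0.71, standard error 0.12, adjusted p = 0.0204). The spread at 72 h was small (212 ± 3.31 RPKM, SD, n = 3). Asb14, an adaptor of a ubiquitin ligase, had 26.2, 25.8 and 28.3 RPKM at 72 h, against 45.8, 41.1 and 44.9 RPKM in control hearts (log2 change -0.70, adjusted p = 0.0131). Ctsl, the lysosomal protease cathepsin L, had the smallest change of the genes called lower, with 83.3, 84.9 and 89.6 RPKM at 72 h, against 122, 113 and 108 RPKM in control hearts (log2 change -0.41, adjusted p = 0.0466).

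Several genes called higher encode mitochondrial proteins. Hadh encodes the short-chain 3-hydroxyacyl-CoA dehydrogenase of fatty acid oxidation. It had 187, 197 and 202 RPKM at 72 h, against 115, 118 and 134 RPKM in control hearts (log2 change 0.67, standard error 0.10, adjusted p = 0.0109). It was called in 4 of the 6 fits that left out a heart. Hadh was the only one of 35 tested fatty acid oxidation genes that passed (0.617% of all genes did). The list had a median log2 change of 0.01. Acadm, the medium-chain acyl-CoA dehydrogenase, had 759, 810.4 and 757 RPKM at 72 h, against 622, 613 and 683 RPKM in control hearts, without overlap and with an adjusted p of 0.186. The summed level of the list was 15821 to 16111 RPKM at 72 h and 12960 to 14185 RPKM in control hearts, so that the sums did not overlap. Fabp3, the heart fatty acid binding protein, averaged 7851 ± 702 RPKM at 72 h and 5816 ± 736 RPKM in control hearts (SD, n = 3 each) and made up most of the difference in the sums without passing the test (adjusted p = 0.225).

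Other mitochondrial genes called higher were Sdhaf2, an assembly factor of succinate dehydrogenase, with 40.84, 39.14 and 38.83 RPKM at 72 h, against 21.92, 24.44 and 29.98 RPKM in control hearts. Timm21, a subunit of the import machinery of the inner membrane, averaged 21.4 ± 0.952 RPKM at 72 h and 15.2 ± 1.69 RPKM in control hearts (SD, n = 3 each). The genes Mrpl9 (log2 change 0.54), Mrps36 (0.50) and Mrps23 (0.46), all named for the mitochondrial ribosome, also passed. Mrps36, now better known as a subunit of the 2-oxoglutarate dehydrogenase complex, had 102, 93.1 and 98.7 RPKM at 72 h, against 67.3, 70.3 and 69.6 RPKM in control hearts. The list of all 75 genes with Mrpl or Mrps symbols was drawn up after these calls were seen. It had 3 members called higher and 0 lower (0.237% and 0.38% of all genes). In 25 members the hearts at 72 h all exceeded the controls (7.33% of all genes did). The log2 change was above 0 for 58 members, beside 3721 of all 10539 tested genes. The median was 0.12, beside -0.08 over all tested genes. The calls in this list numbered 0 without 72 h heart 1 or 2 or any control heart, and 2 without 72 h heart 3. Respiratory chain and ATP synthase genes (49 tested) had 0 calls and a median of 0.05. Of these Ndufv2 had 618, 647 and 475 RPKM at 72 h, against 455, 406 and 408 RPKM in control hearts (adjusted p = 0.183), and Atp5pb had an adjusted p of 0.174.

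The rest of the genes called higher had varied roles. Gmnn encodes geminin, an inhibitor of DNA replication licensing, and had 31.8, 31.7 and 23.8 RPKM at 72 h, against 16.5, 14.7 and 17.7 RPKM in control hearts (log2 change 0.81, adjusted p = 0.0114). Pls3, plastin 3, bundles actin filaments and had 32.2, 31.8 and 30.1 RPKM at 72 h, against 21.1, 18.1 and 18.6 RPKM in control hearts (log2 change 0.69, adjusted p = 0.0101). After adjustment for Y-linked mRNA, Pls3 was still called (adjusted p = 0.0339). Spast, the microtubule-severing protein spastin, averaged 11.5 ± 0.797 RPKM at 72 h and 7.17 ± 0.539 RPKM in control hearts (SD, n = 3 each).

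Hagh, a glyoxalase that clears the adduct of methylglyoxal with glutathione, averaged 68.6 ± 9.13 RPKM at 72 h and 46.4 ± 2.96 RPKM in control hearts (SD, n = 3 each). Ndc1, a membrane protein of the nuclear pore, averaged 4.37 ± 0.310 RPKM at 72 h and 2.64 ± 0.435 RPKM in control hearts (SD, n = 3 each). Cdh19, a cadherin known from glial cells of peripheral nerve, had 3.36, 3.31 and 2.27 RPKM at 72 h, against 1.27, 1.07 and 1.42 RPKM in control hearts. Grik5, a kainate receptor subunit, had 5.41, 4.20 and 7.68 RPKM at 72 h, against 2.57, 2.71 and 2.90 RPKM in control hearts. Ccdc63 was called as well, and its exons overlap those of Myl2, the ventricular myosin light chain, on the other strand. The value of Ccdc63 (1.71, 1.98 and 1.63 RPKM at 72 h, against 0.78, 0.81 and 0.51 RPKM in control hearts) is therefore uncertain, as are those of Tmx2 and Tmem116, which also have opposite-strand neighbours, and of Ier3ip1, which shares exon sequence with Hdhd2.

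Interferon response genes were the list furthest below the rest of the transcriptome. These genes are switched on when cells sense interferon, and many of their products act against viral RNA. Of 41 tested members 5 were called lower and 0 higher (0.38% and 0.237% of all genes). The log2 change was below 0 for 41 of 41, with a median of -0.75, beside -0.08 and 64.7% below 0 over all tested genes. In 38 of the 41 all 3 hearts at 72 h lay below all 3 controls, against 10.8% of all genes, and 28 had an unadjusted p under 0.05 in this direction, against 9.11% of all genes. The count of 5 rests on single hearts: it was 0 without 72 h heart 1 or 2 or control heart 1 or 2, 1 without control heart 3 and 16 without 72 h heart 3. The median was between -0.84 and -0.62 in those 6 fits.

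The summed level of the list was 203, 223 and 275 RPKM in the hearts at 72 h, against 388, 383 and 457 RPKM in control hearts. The groups did not overlap, and 72 h heart 3 was the closest to the controls. Members below 0 numbered 41 of 41 in the hearts with Y-linked mRNA and 40 of 41 within code A. Each comparison had a single control heart. Over all tested genes 6830 and 6458 of 10539 were below 0. For 38 members the hearts at 72 h all lay below the controls, so that their sign was fixed in advance. The counts are therefore no check on the title code or sex. After adjustment for Y-linked mRNA the median was -0.76 and 0 members were called, and with the title code as a covariate it was -0.94 and 18 were called.

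Ifit3 binds viral RNA in a complex with other IFIT proteins. It had 2.68, 3.21 and 3.31 RPKM at 72 h, against 7.82, 5.89 and 6.64 RPKM in control hearts (log2 change -1.03, standard error 0.16, adjusted p = 0.0131). Its near-identical neighbour Ifit3b was called too (log2 change -0.96), and since reads may be split between the 2 genes, each value is uncertain. Oas2, which makes 2′-5′ oligoadenylate upon sensing double-stranded RNA, had 0.96, 1.49 and 1.92 RPKM at 72 h, against 4.22, 3.64 and 4.30 RPKM in control hearts (log2 change -1.25, adjusted p = 0.0429). Oasl2, a relative of the OAS enzymes, had 1.30, 2.88 and 2.74 RPKM at 72 h, against 5.78, 4.71 and 5.67 RPKM in control hearts (log2 change -1.12, adjusted p = 0.0382).

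Rtp4 (log2 change -1.01), an interferon-induced protein named as a receptor transporter, and Trim25 (log2 change -0.60), the ubiquitin ligase that activates the RNA sensor RIG-I, were the other members called. Slfn2, an interferon-inducible Schlafen protein of lymphoid and myeloid cells that was not in the list, was called as well, with 2.38, 1.94 and 2.84 RPKM at 72 h, against 5.34, 5.87 and 4.45 RPKM in control hearts. Among members that did not pass, Irf7, the master factor of interferon induction, had 1.61, 2.09 and 3.78 RPKM at 72 h, against 5.99, 6.22 and 7.20 RPKM in control hearts (adjusted p = 0.0655). Irf9 averaged 7.78 ± 2.60 RPKM at 72 h and 16.3 ± 1.54 RPKM in control hearts (SD, n = 3 each), with an adjusted p of 0.0722. Eif2ak2 and Rsad2 were the members nearest to 0, with log2 changes of -0.14 and -0.17.

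A promoter element of the interferon response was more frequent among members of the list than among all genes, though many members lacked it. The list was drawn up from interferon response genes, so this share describes the list. It does not depend on the levels in these hearts and is no support for the changes in them. The interferon-stimulated response element is built from repeats of GAAA, and 2 copies of GAAA with any 2 bases between them were searched on both strands of the RefSeq promoters of GRCm38.p6 (250 bases before to 50 after the gene start). It was found in 16 of the 31 list members that matched a promoter (51.6%), beside 3.43% of all tested genes and 3.99% of all promoters in that table. A match is a description of the sequence and not a bound site. Stretches around a match are shown for 4 interferon genes, since the list differs from all genes in this element. Of these 4, Ifit3 was called lower, and Ifit1, Bst2 and Stat2 were not called (adjusted p = 0.075, 0.156 and 0.123). Xpo6 is shown too, since it was called lower in all 6 fits that left out a heart. Capitals mark the element or its reverse complement. The last capital of the Ifit1 stretch is the first base of another match, which runs past the stretch shown.
Ifit3, chr19:34583363-34583392, plus strand: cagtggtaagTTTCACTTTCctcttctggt
Ifit1, chr19:34640775-34640804, plus strand: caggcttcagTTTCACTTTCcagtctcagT
Bst2, chr8:71537583-71537612, minus strand: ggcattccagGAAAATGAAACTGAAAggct
Stat2, chr10:128270266-128270295, plus strand: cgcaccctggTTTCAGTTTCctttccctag
Xpo6, chr7:126200635-126200664, minus strand: gaaaagaaacGAAAGGGAAAcctttccttt
The same 30 bases stand before Ifit3b as before Ifit3. In Bst2 the capitals hold 2 overlapping copies. Of all genes called lower, 5 of 26 with a promoter in the table held the element (19.2%), beside 3.43% of all tested genes. These 5 were Ifit3, Ifit3b, Xpo6, Asb14 and Tdp1, and Ifit3 and Ifit3b count separately despite their shared bases. Of those called higher 0 of 18 held it, too few genes to tell from the share of all tested genes.

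**Figure D3:**
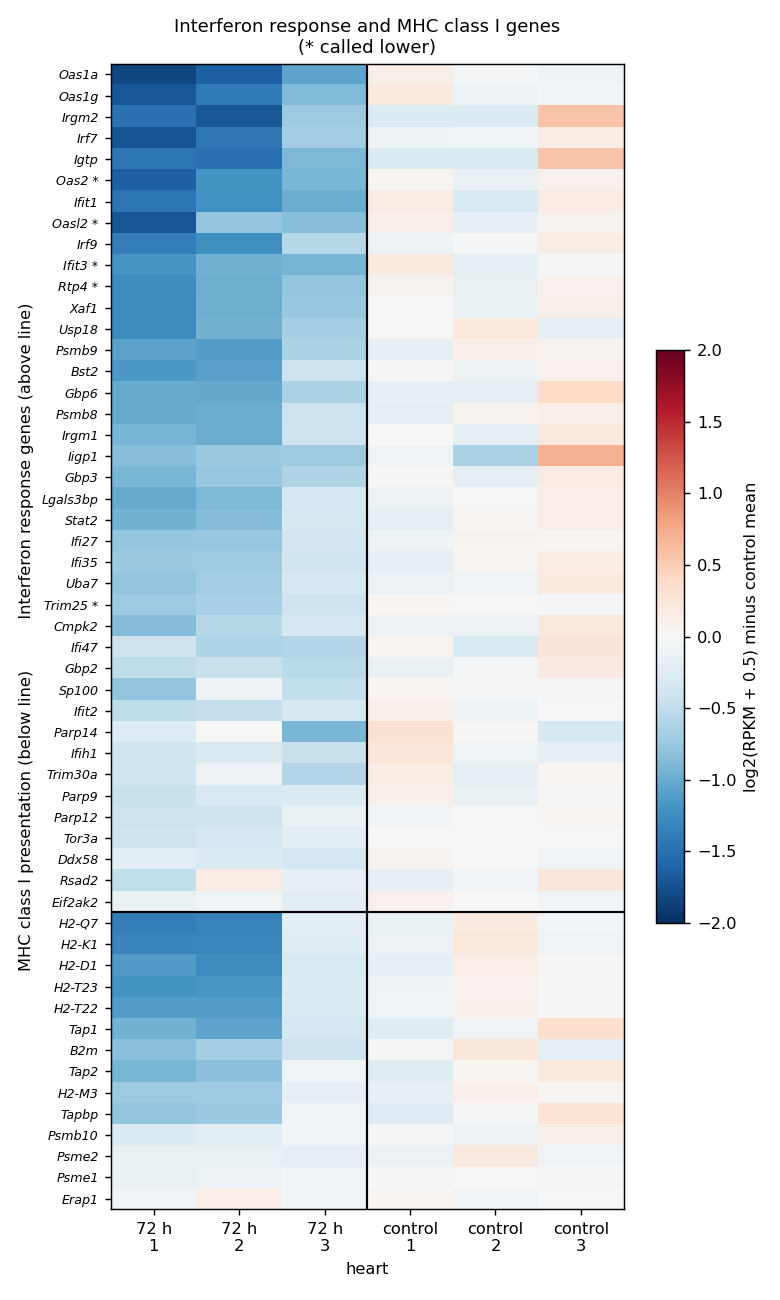
Log2(RPKM + 0.5) minus the mean of the 3 control hearts for 40 of the 41 interferon response genes (above the line) and 14 MHC class I presentation genes (below it) in the 3 hearts at 72 h (left) and the 3 control hearts (right). Blue is lower and red higher than the control mean, asterisks mark called genes, and 72 h heart 3 is paler than hearts 1 and 2 for most MHC class I genes.

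Genes of MHC class I presentation, which display peptides on the cell surface and are induced by interferon, had lower values with a wider spread. Of 14 tested members 0 were called in either direction, 10 were lower at an unadjusted p of 0.05 (9.11% of all genes) and 10 were lower without overlap (10.8% of all genes). The median log2 change was -0.63, and 14 of 14 were below 0 (13 of 14 under the scalings by median ratio, upper quartile and quantiles). H2-D1 had 173, 158 and 309 RPKM at 72 h, against 339, 419 and 389 RPKM in control hearts (adjusted p = 0.158). B2m, beta-2 microglobulin, had 276, 311 and 371 RPKM at 72 h, against 487, 580.2 and 432 RPKM in control hearts (adjusted p = 0.346). Tap1, of the peptide transporter, had 2.69, 2.47 and 4.34 RPKM at 72 h, against 4.69, 5.34 and 7.23 RPKM in control hearts (adjusted p = 0.319). In each of these genes 72 h heart 3 was the highest of its group, and without it 6 members were called lower. Class I heavy chain genes are near-identical to each other in part, so their single values are uncertain.

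Summed over the list, MHC class I genes reached 815, 843 and 1178 RPKM at 72 h, against 1353, 1599 and 1389 RPKM in control hearts. The other induced hearts were not uniform. The sums were 1723, 1920 and 950.0 RPKM at 12 h, 835, 799 and 869 RPKM at 24 h, and 831, 823 and 852 RPKM at 7 d. The interferon list had sums of 528, 549 and 210 RPKM at 12 h, 269.6, 209 and 230.1 RPKM at 24 h, and 253, 245 and 283 RPKM at 7 d. In both lists 12 h hearts 1 and 2 exceeded every control heart, and every other induced heart lay below every control heart. The interferon sum of 72 h heart 1 was the lowest of all 15 hearts, and the MHC class I sum of 72 h heart 3 was above all hearts at 24 h and 7 d.

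Markers of other cell types were measured for the whole of each list, since a ventricle holds more than cardiomyocytes. In a whole ventricle, fewer cells of a type and less RNA per cell cannot be told apart. Macrophage markers (17 tested) had 0 calls, a median log2 change of -0.22 and sums of 119 to 172 RPKM at 72 h and 196 to 204.5 RPKM in control hearts, with 5 members that were lower without overlap (10.8% of all genes). Among them C1qb had 16.7, 14.8 and 18.2 RPKM at 72 h, against 22.9, 22.3 and 24.8 RPKM in control hearts, and Lyz2 had 46.9, 31.2 and 54.8 RPKM at 72 h, against 68.0, 69.9 and 66.3 RPKM in control hearts. Lymphocyte markers were low in every heart, with sums of 2.5 to 3.2 RPKM at 72 h and 2.8 to 3.7 RPKM in control hearts and 0 of 13 reaching the mean of 1 RPKM.

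Fibroblast markers (12 tested) had 0 calls and a median of -0.35, with sums of 1025 to 1288 RPKM at 72 h and 1279 to 1422 RPKM in control hearts. Endothelial markers (16 tested) had 0 calls, a median of -0.27 and 16 of 16 below 0, with sums of 380.0 to 465 RPKM at 72 h and 472 to 514 RPKM in control hearts. Ventricular cardiomyocyte markers (13 tested) had 0 calls and a median of 0.04, with sums of 60271 to 63384 RPKM at 72 h and 58788 to 60885 RPKM in control hearts. The part of these markers in the lower interferon and matrix values was not tested.

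Collagens and other matrix genes had a median log2 change of -0.30 over 32 tested members, of which 30 were below 0, 0 were called and 12 did not overlap, all of these lower (10.8% of all genes). Col14a1, a collagen of fibril surfaces, had 2.13, 1.70 and 2.31 RPKM at 72 h, against 6.37, 6.90 and 3.48 RPKM in control hearts (log2 change -1.21, adjusted p = 0.0762). Col3a1 had 63.1, 69.8 and 65.8 RPKM at 72 h, against 103.6, 89.2 and 83.1 RPKM in control hearts (adjusted p = 0.211). Dpt, dermatopontin, had 37.86, 28.57 and 49.95 RPKM at 72 h, against 60.98, 60.85 and 55.58 RPKM in control hearts (adjusted p = 0.151). With the title code as a covariate 10 members were called lower.

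**Figure D4:**
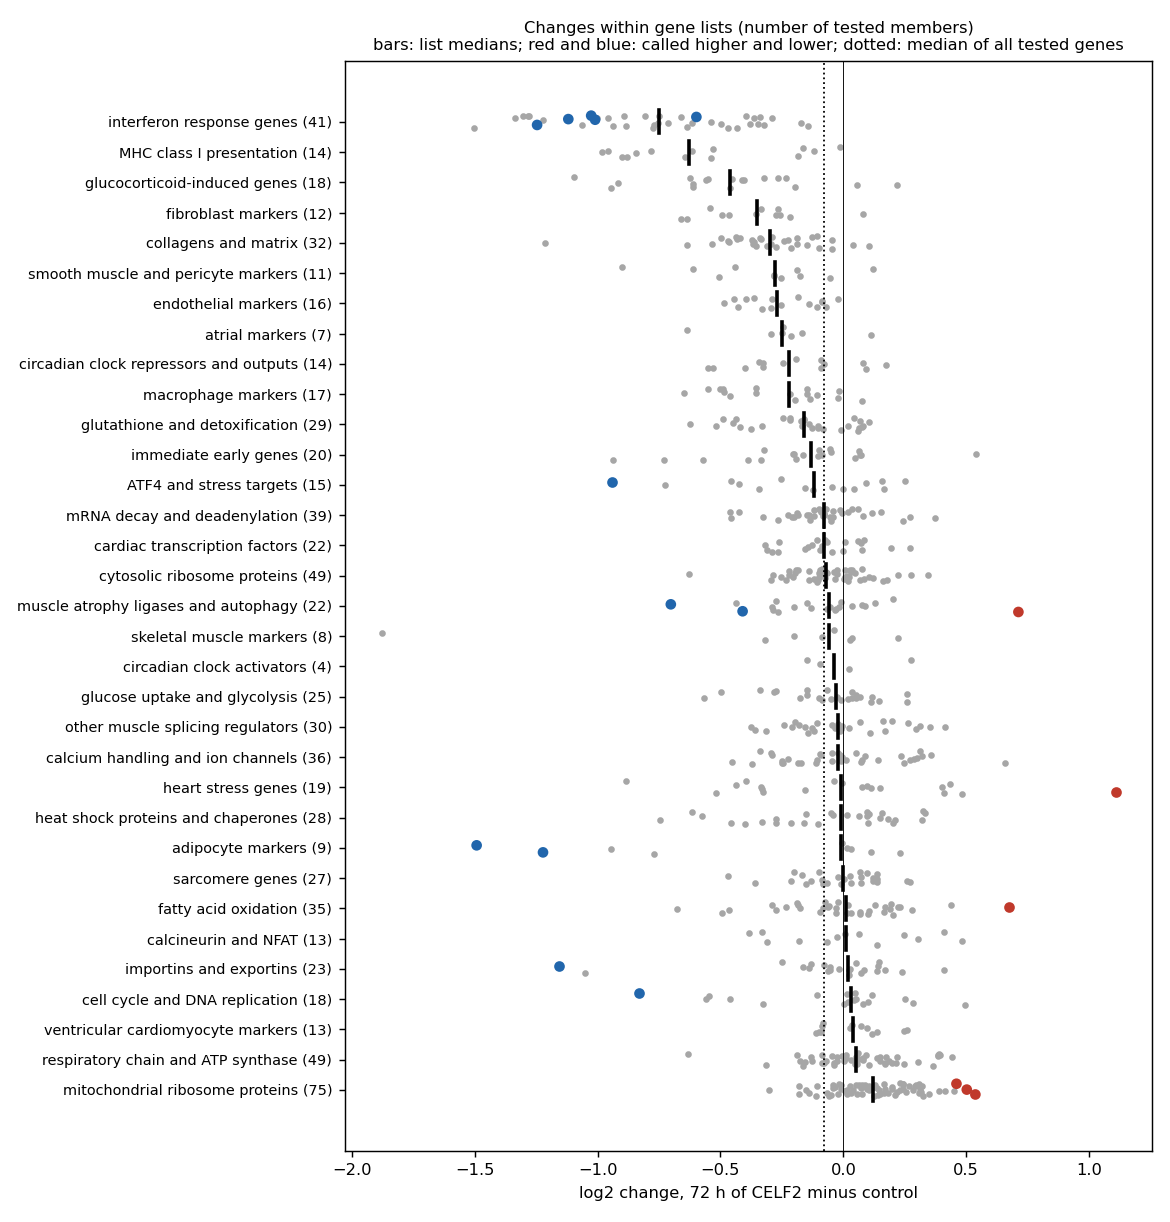
Log2 change (72 h of CELF2 minus control) on the horizontal axis for each tested member of the 33 gene lists with at least 4 tested members (the CELF and Y-linked lists not drawn), with black bars for the list medians, blue and red points for called genes and a dotted line for the median of all tested genes. Among the lists drawn, the interferon list has the lowest median at -0.75, followed by MHC class I at -0.63, and the mitochondrial ribosome list the highest at 0.12.

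Of 9 tested adipocyte markers 2 were called lower (0.38% of all genes) and 0 higher. The log2 change was below 0 for 5 and above 0 for 4. Without overlap 3 were lower and 1 higher (10.8% and 7.33% of all genes). Cfd, the complement protease adipsin, had 1.31, 1.96 and 3.06 RPKM at 72 h, against 8.05, 6.12 and 5.73 RPKM in control hearts. This was the largest decrease among the called genes (log2 change -1.49, standard error 0.24, adjusted p = 0.0131). Car3, carbonic anhydrase 3, had 2.16, 2.18 and 4.13 RPKM at 72 h, against 8.05, 8.79 and 4.78 RPKM in control hearts (log2 change -1.22, adjusted p = 0.0413). For Car3, 72 h heart 3 and control heart 3 nearly met. Adipoq, adiponectin, the hormone that defines fat cells, had 0.50, 0.58 and 0.94 RPKM at 72 h, against 2.01, 1.88 and 0.79 RPKM in control hearts, with overlap. Scd1, stearoyl-CoA desaturase, had 4.58, 4.21 and 6.17 RPKM at 72 h, against 8.28, 18.2 and 6.43 RPKM in control hearts (adjusted p = 0.156). The list as a whole had a median of -0.01, and its 2 calls were lost without 72 h heart 1 or 2 or control heart 1 or 2. How much fat adhered to each ventricle was not measured, and the part of it in these values was not tested.

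Glucocorticoid-induced genes, which follow adrenal hormone, had 0 calls among 18 tested members and a median of -0.46. Zbtb16, a transcription factor that is a sensitive target of the glucocorticoid receptor, had 8.77, 6.05 and 17.9 RPKM at 72 h, against 16.0, 22.9 and 20.3 RPKM in control hearts. Fam107a, an actin-binding target of the same receptor, had 2.08, 1.78 and 4.90 RPKM at 72 h, against 4.86, 8.54 and 5.88 RPKM in control hearts. In both genes 72 h heart 3 reached the controls and the groups overlapped. The list medians relative to the control mean were -0.57, -0.82 and 0.10 in 72 h hearts 1, 2 and 3. In control hearts 1, 2 and 3 they were -0.25, 0.22 and -0.08. By this median only 72 h hearts 1 and 2, which share title code A, lay below every control heart. Control heart 1, the lowest control, has code A too. The list median was -0.35 with the title code as a covariate, -0.53 with Y-linked mRNA and -0.1 with both.

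Since CELF proteins take part in mRNA decay and bind UGU-rich 3′ UTRs, the machinery and the sequence were both examined. Of 39 tested genes of mRNA decay and deadenylation 0 were called, with a median of -0.08, equal to that of all genes. Pan2, a subunit of the PAN2-PAN3 deadenylase, had 4.24, 4.75 and 4.42 RPKM at 72 h, against 6.35, 7.03 and 5.64 RPKM in control hearts, without overlap and with an adjusted p of 0.075. Among 30 other splicing regulators of muscle 0 were called and 5 did not overlap, all higher at 72 h (7.33% of all genes). They included Hnrnpa2b1, with 377, 427 and 348 RPKM at 72 h, against 347, 255 and 269.8 RPKM in control hearts (adjusted p = 0.174), and Hnrnph1 and Tial1, with adjusted p of 0.199 and 0.124.

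The 7-base sequence TGTTTGT was counted in the longest annotated 3′ UTR of each gene on mm9. It occurred in 10 of 37 genes called lower (27.0%), in 7 of 25 called higher (28.0%) and in 27.6% of all tested genes. Both shares were near that of all tested genes, but the 3′ UTRs differed in length. The median length was 727 bases for genes called lower, 836 bases for those called higher and 1161 bases for all tested genes. The shares were not adjusted for length, so they do not compare how dense the sequence is. Celf2 is among the 7 called higher. Sites of a pair of genes called lower and a pair called higher are shown for the sequence sought, in capitals.
Celf1, chromosome 2, lower at 72 h: agtttgctgTGTTTGTaaccagttt
Pigk, chromosome 3, lower at 72 h: ctttcattgTGTTTGTgtgtttgag
Spast, chromosome 17, higher at 72 h: attcgttgtTGTTTGTgtaaatatg
Pls3, chromosome X, higher at 72 h: atacatgctTGTTTGTttggaaatc
Celf1 held 3 copies in its 3′ UTR of 6132 bases and Pigk 2 in 3386 bases, and Spast and Pls3 held 1 each. Whether CELF2 bound these sites was not measured here.

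Hearts at 72 h were also compared with the mean of the other induced groups, a contrast whose means leave out the control hearts, though these still enter the estimate of the spread. The count of calls below was 0 without control heart 2 or 3 or any single heart at 72 h, and 2 without control heart 1. The contrast identified 3 genes (0.0285% of those tested). Hnrnpdl encodes an RNA-binding protein that regulates splicing, its own included. It had 44.6, 40.8 and 45.2 RPKM at 72 h, and its means were 29.0 RPKM at 12 h, 28.7 RPKM at 24 h and 33.3 RPKM at 7 d (log2 difference 0.52, standard error 0.07, adjusted p = 0.0346). It was also called against control hearts, which averaged 30.4 ± 1.75 RPKM (SD, n = 3, log2 change 0.51, adjusted p = 0.0204). Banp, a nuclear protein that binds CG-containing promoters, had 2.90, 3.04 and 3.88 RPKM at 72 h, and its means were 5.45 RPKM at 12 h, 6.47 RPKM at 24 h and 6.57 RPKM at 7 d (log2 difference -0.82, adjusted p = 0.0374). In control hearts Banp had 4.59, 6.29 and 6.38 RPKM (log2 change -0.72, adjusted p = 0.0429). Nfil3, a repressor with circadian expression, averaged 4.38 ± 0.651 RPKM at 72 h, against 9.20 ± 0.758 RPKM at 12 h, 7.68 ± 1.61 RPKM at 24 h and 7.70 ± 0.819 RPKM at 7 d (SD, n = 3 each, adjusted p = 0.0374). Its control mean was 4.90 ± 0.597 RPKM (SD, n = 3), so that Nfil3 at 72 h was near the control hearts.

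**Figure D5:**
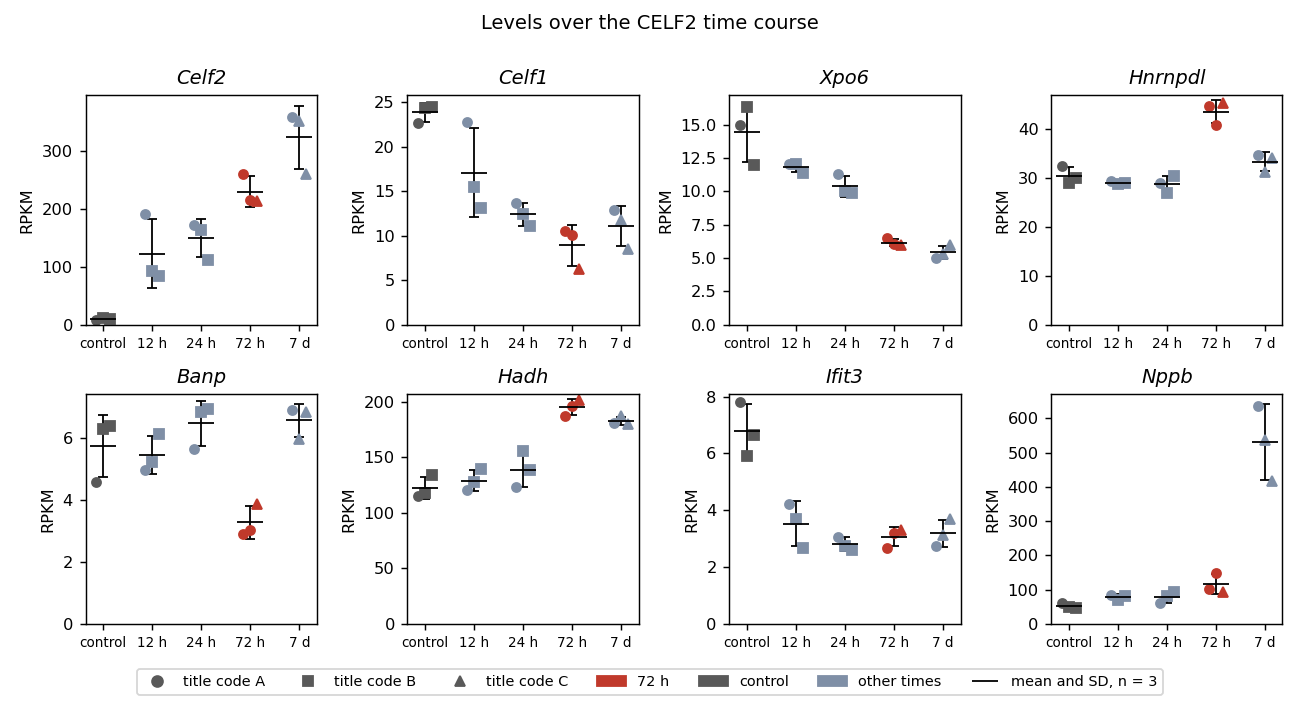
RPKM of 8 genes in control hearts and at 12 h, 24 h, 72 h (red) and 7 d of CELF2 induction, with marker shapes for the title code and bars for mean and SD (n = 3). Hnrnpdl is highest and Banp lowest at 72 h, while Celf2 (324 RPKM) and Nppb (530.3 RPKM) have their highest means at 7 d.

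Most genes called at 72 h lay on the same side of the control mean at 7 d, 25 of 25 called higher and 39 of 40 called lower, the exception being Banp. The genes were called for the distance of 72 h from the same 3 control hearts. Such agreement, and an extreme mean at 72 h, are therefore partly built in. Shares over all tested genes were not counted for this or for the counts that follow. Every heart at 72 h and at 7 d also had Y-linked mRNA. The mean at 72 h was the lowest of the 5 groups for 14 of the 40 genes called lower and the highest for 4 of the 25 called higher. Means moved in a single direction over 12 h, 24 h, 72 h and 7 d for 15 of those called lower and 16 of those called higher. Rab21 and Acot7 were among those called lower, with Acot7 at 52.1 RPKM at 12 h, 51.1 RPKM at 24 h, 32.1 RPKM at 72 h and 26.5 RPKM at 7 d. Ifit3 was not, with 3.52 RPKM at 12 h, 2.79 RPKM at 24 h, 3.07 RPKM at 72 h and 3.18 RPKM at 7 d, against 6.78 RPKM in control hearts. Length of doxycycline differs from the controls at every time except 72 h, and the comparisons with control share the same 3 control hearts.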

How the data were processed

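Strand-specific poly(A)+ libraries of 15 ventricles were sequenced as paired ends. The authors mapped reads to mm9 with Bowtie and TopHat (versions not given in the sources used here), kept uniquely mapping reads and deposited RPKM values, in which reads on the constitutive coding sequence of a RefSeq gene are divided by its length in kilobases and by the library's nonribosomal, nonmitochondrial reads. Depth is unknown, so no counting interval was computed.

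Genes averaging 1 RPKM over the 6 hearts entered limma 3.58.1 (R 4.3.3) on log2(RPKM + 0.5), a scale that understates changes of low genes. The 15 hearts in 5 groups shared a trended variance (10 residual degrees of freedom), and an adjusted p (Benjamini-Hochberg over all 10539 genes) under 0.05 was a call. Every adjusted p in the text is from limma with this adjustment, in this fit unless a covariate or another contrast is named, and the fit was first tested on simulated data. A total of 16146 of 16199 IDs matched a current gene record. The rule allowed naming the called genes and the CELF, muscleblind and Y-linked genes. In each of 38 lists it also allowed the 4 members with the smallest adjusted p and those moving against the rest. Not all of these are named. Other list members were named for a defining role with their values seen, and 1 interferon list member is counted in the list and not reported by itself here. Members and lists were chosen with earlier results of these data known. Alternatives were another pseudocount, filter or scaling, the 6 hearts alone, covariates, and leaving out each of these 6 hearts. Promoters are from RefSeq (GRCm38.p6) and 3′ UTRs from GENCODE on mm9.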

Additional observations from a re-analysis of the deposited data

Results flagged for a closer look

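Nfil3, Hnrnpdl and Banp differed between 72 h and the mean of the other induced groups in a contrast of the limma fit. Hnrnpdl was higher at 72 h by 0.52 on the log2 scale, Nfil3 had a difference of -0.83 and Banp one of -0.82. Leaving out a single heart at 72 h or a single control heart left 0 to 2 of these calls. Hearts at 12 h, 24 h and 7 d were not left out in turn. Of 3 hearts at each time, Y-linked mRNA was present in 3 (72 h), 0 (12 h), 2 (24 h) and 3 (7 d). After adjustment for Y-linked mRNA 0 genes were called, with 815 at an unadjusted p under 0.05.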

How the results depend on the processing

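Celf2 was called in every alternative run. The count of 65 genes (25 higher, 40 lower) was within 1.5 times with a pseudocount of 0.1 or 1 and with no filter. It was 38 with a mean of at least 5 RPKM (17 higher, 21 lower), where fewer genes are tested. Median-ratio scaling gave 87 (51 higher, 36 lower), upper-quartile scaling 93 (50 higher, 43 lower) and quantile normalization 90 (52 higher, 38 lower). The 6 hearts alone, both covariates together, and the hearts with Y-linked mRNA alone each gave 1 (1 higher, 0 lower), with 1415, 1472 and 779 genes at an unadjusted p under 0.05. The title code as a covariate gave 514 (136 higher, 378 lower), Y-linked mRNA 6 (3 higher, 3 lower) and library weights estimated gene by gene 3962 (858 higher, 3104 lower). The weights and the restriction to hearts with Y-linked mRNA were chosen after seeing the data. Leaving out 1 of the 6 hearts gave 4 to 269 genes, 1 to 55 higher and 3 to 214 lower. Apart from the filter and the smaller sets of hearts, the cause of these moves was not tested.

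Against the other induced hearts the count of 3 was 2 with no filter (1 of the main 3) and 2 with both covariates (0 of the main 3). It was 1 with a mean of at least 5 RPKM, 6 with each scaling and 55 with the title code. With Y-linked mRNA it was 0, and with the weights 3883. Without 1 heart at 72 h or 1 control heart it was 0 to 2. Signs turned for 5 uncalled genes. Mbnl1 had -0.20 with the title code and -0.35 with both covariates, and -0.07 to 0.19 without 1 heart. Mbnl2 had -0.00 with the title code, -0.04 with Y-linked mRNA, -0.13 with both, -0.07 with the weights, -0.11 in the hearts with Y-linked mRNA and -0.11 to 0.06 without 1 heart. Ankrd1 had -0.41 with Y-linked mRNA, -0.16 with both and -0.07 to 0.29 without 1 heart. Acta1 had -0.00 with Y-linked mRNA. Nppa had -0.68 with Y-linked mRNA, -0.13 with the weights, -0.78 in the hearts with Y-linked mRNA and -0.19 to 0.56 without 1 heart. No paired analysis was possible because the replicate numbers only name hearts of separate animals in accession order. One weight per library could not be fitted and was not run. With 3 hearts a group and unknown depth, changes of genes near 1 RPKM are the least certain.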
